A study of Mus musculus with 12 samples.

Results

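The let-7 family is a set of closely related microRNAs (miRNAs), and 8 of its mature 5p members were measured here: mmu-let-7a-5p, mmu-let-7b-5p, mmu-let-7c-5p, mmu-let-7d-5p, mmu-let-7e-5p, mmu-let-7f-5p, mmu-let-7g-5p and mmu-let-7i-5p. They were taken by name from the 696 mouse miRNA names carried by the arrays, and all 8 are described, whatever their level. The samples came from C57BL/6J mice in which a frosted diffuser was fixed over the right eye for 10 days (visual form deprivation, which makes the growing eye myopic), with the uncovered left eye of the same animals as control. Retina and sclera were collected at 34 days of age, giving 4 groups of 3 samples: control retina, myopic retina, control sclera and myopic sclera. All mice were of this strain. Every sample pooled the tissue of 3 eyes, and the control eye belonged to a treated animal, so the control groups are contralateral eyes rather than eyes of untouched mice. The labels give each sample 1 mouse identifier, 1 to 3, although 3 eyes were pooled. The paper describes same-numbered control and myopic retina samples as corresponding, and speaks of the animals of such a pair as 1 experimental group. Which animals the same-numbered scleral samples share is not settled. The main tests did not pair samples by number, and a fit that did is given at the end. The p-values below measure the spread between these pools.

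Each sample was hybridised to a 1-colour Agilent mouse miRNA array. The number of miRNAs detected was 353 to 401 per retinal array and 274 to 317 per scleral array. The third control sclera array was the dimmest: the 75th percentile of its signals, over the 246 miRNAs detected on all arrays, was 276 against 436 to 803 on the other scleral arrays and 1024 to 1414 on the retinal arrays. The 12 arrays lay on 3 slides, each slide held 1 array of each group, and each group occupied the same position on every slide, so that array position and group cannot be told apart. The summed signal of 5 miRNAs of retinal neurons and photoreceptors was 178970 to 190024 in the retina and 2317 to 14682 in the sclera (quantile-normalized units). Of 3 mesenchymal miRNAs, miR-214-3p was undetected in every retina, and their sum was 24.2 to 192 in the retina against 15901 to 17504 in the sclera. Both tissues carried the markers of their labels, and all 5 neuronal miRNAs were still detected on every scleral array. Marker miRNAs of striated muscle (3 of 3 on the array) summed to 104 to 245 in the retina and 1920 to 3689 in the sclera, and those of leukocytes (3 of 3) to 43.4 to 124 and 748 to 859. Erythroid miRNAs (2 of 3) summed to 175.0 to 293.9 in the retina and 870.5 to 1161 in the sclera. Those of pigment cells (2 of 2) were higher in the retina within each kind of eye, at 14787 to 15135 against 7344 to 13794 in control eyes and 13369 to 14787 against 5135 to 8073 in form-deprived eyes. Epithelial miRNAs of cornea and lens (3 of 3) ranged from 65.4 to 3598 over the retinal arrays and from 1088 to 8299 over the scleral arrays. In such bulk tissue, fewer cells of a type and less RNA per cell cannot be told apart. The part of these other cells in the tissue differences below was not tested.

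miRNAs are short RNAs that guide Argonaute proteins to messenger RNAs, mostly through pairing of the seed, bases 2 to 8 of the mature strand. Let-7 RNAs accumulate as cells leave the progenitor state and are abundant in most adult tissues, where they restrain growth-promoting genes such as Hmga2 and the Ras genes. Their maturation is blocked by the RNA-binding protein Lin28, itself a let-7 target, and in the developing retina they take part in the timing of progenitor output. The members are made from several genes, some of which give the same mature RNA.

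The mature sequences are shown because they define both the family and the difficulty of measuring it. They are from RefSeq (GRCm38.p6), with the seed in capitals; miR-98-5p, which has the same seed under another name, is given last.
let-7a-5p: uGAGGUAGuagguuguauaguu
let-7b-5p: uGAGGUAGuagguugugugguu
let-7c-5p: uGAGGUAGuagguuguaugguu
let-7d-5p: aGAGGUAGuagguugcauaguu
let-7e-5p: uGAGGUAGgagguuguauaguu
let-7f-5p: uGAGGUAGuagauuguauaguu
let-7g-5p: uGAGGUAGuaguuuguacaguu
let-7i-5p: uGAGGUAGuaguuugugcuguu
miR-98-5p: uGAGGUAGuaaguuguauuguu

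All 8 members share 1 seed and a length of 22 bases. Of the 28 pairs of members, 4 differ in a single base and 8 in 2 bases, and the most distant pair differs in 6. Positions are counted from the 5′ end of let-7a, with its base first. Let-7c carries A19G, let-7e U9G and let-7f G12A, while let-7b carries A17G and A19G. Let-7d differs by U1A and U16C, let-7g by G12U and U18C, and let-7i by G12U, A17G, U18C and A19U. The seed is thus untouched, and every difference lies at the first base or beyond base 8.

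The arrays measured each member with 2 probes of 18 to 21 bases, printed in 10 spots each. The probes are complementary to the mature RNA from base 2, 3, 4 or 5 to its last base, so the longest cover the whole seed. Of the 16 probes, 12 differ from another member in as little as 1 base, and the remaining 4, those of let-7g and let-7i, in at least 2. The 19-base probes of let-7a and let-7c show how close such a pair is, with the single differing base in capitals.
let-7a probe: aacTatacaacctactacc
let-7c probe: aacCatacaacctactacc
How much of a member's signal came from a near-identical RNA was not tested here. Both probes of each member gave tissue differences of the same sign, with at most 0.11 between them on the log2 scale after 75th percentile scaling. All 1920 spots of the members were well above background, and the software marked 38 of them as outliers.

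The files place the probes on the mm9 genome build at 11 let-7 loci. Let-7a maps to chr13:48633562-48633581 on the minus strand and to chr9:41344817-41344836 on the plus strand. Let-7f maps beside the first of these, at chr13:48633206-48633226 (minus), and to chrX:148346897-148346917 (plus), and let-7d lies at chr13:48631399-48631417 (minus). Let-7b was placed at chr15:85537758-85537776 (plus), and let-7c at chr15:85537049-85537067 and chr16:77599920-77599938 (both plus). Let-7e lies at chr17:17967333-17967351 (plus), let-7g at chr9:106081178-106081198 (plus) and let-7i at chr10:122422702-122422722 (minus). In the RefSeq gene table (GRCm38.p6, used for names only), Mirlet7g lies within Wdr82, Mirlet7f-2 and Mir98 within Huwe1, and Mirlet7e within Spaca6. Mirlet7b and Mirlet7c-2 lie within the long non-coding gene Lncppara and Mirlet7a-2 within Mir100hg. No other gene of that table spans Mirlet7i, Mirlet7c-1 or the chromosome 13 genes. Whether these positions are exonic or intronic was not analysed here. Because let-7a, let-7c and let-7f each come from 2 loci with the same mature sequence, the arrays cannot tell their sources apart.

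All 8 members were detected on all 12 arrays. The total gene signal of let-7a, the background-corrected intensity summed over its probes, was 14812, 16933 and 18132 in control retina and 16386, 22131 and 14624 in myopic retina. In control sclera it was 9606, 12389 and 4957, and in myopic sclera 9139, 7864 and 7120. Every retinal array was thus above every scleral array before scaling, and the third control sclera array was the lowest.

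Let-7g showed the widest gap between the tissues. Its signals were 11152, 12379 and 14422 in control retina, 12822, 17195 and 11273 in myopic retina, 3214, 3940 and 1178 in control sclera, and 2777, 2349 and 2120 in myopic sclera. Let-7f behaved alike in order, with 12898 to 19978 over the 6 retinal arrays and 2681 to 8633 over the 6 scleral arrays. Let-7d ranged from 6098 to 9012 in the retina and from 1921 to 4441 in the sclera, and let-7e from 4058 to 6087 and from 1157 to 2483. For these 5 members the unscaled signals of the tissues did not overlap.

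The other 3 members had overlapping signals before scaling. Let-7b gave 8128, 8531 and 9058 in control retina, 8454, 11475 and 7852 in myopic retina, 8739, 11339 and 6097 in control sclera, and 8503, 7590 and 7047 in myopic sclera. Let-7c gave 11280, 11206 and 12601 in control retina, 11592, 16095 and 10898 in myopic retina, 10684, 14608 and 6849 in control sclera, and 10704, 9321 and 8652 in myopic sclera. Let-7i ranged from 5004 to 6901 in the retina and from 2314 to 6901 in the sclera. Since the scleral arrays were dimmer as a whole, equal raw signal in these members becomes a higher relative level in the sclera once arrays are scaled.

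**Figure D1:**
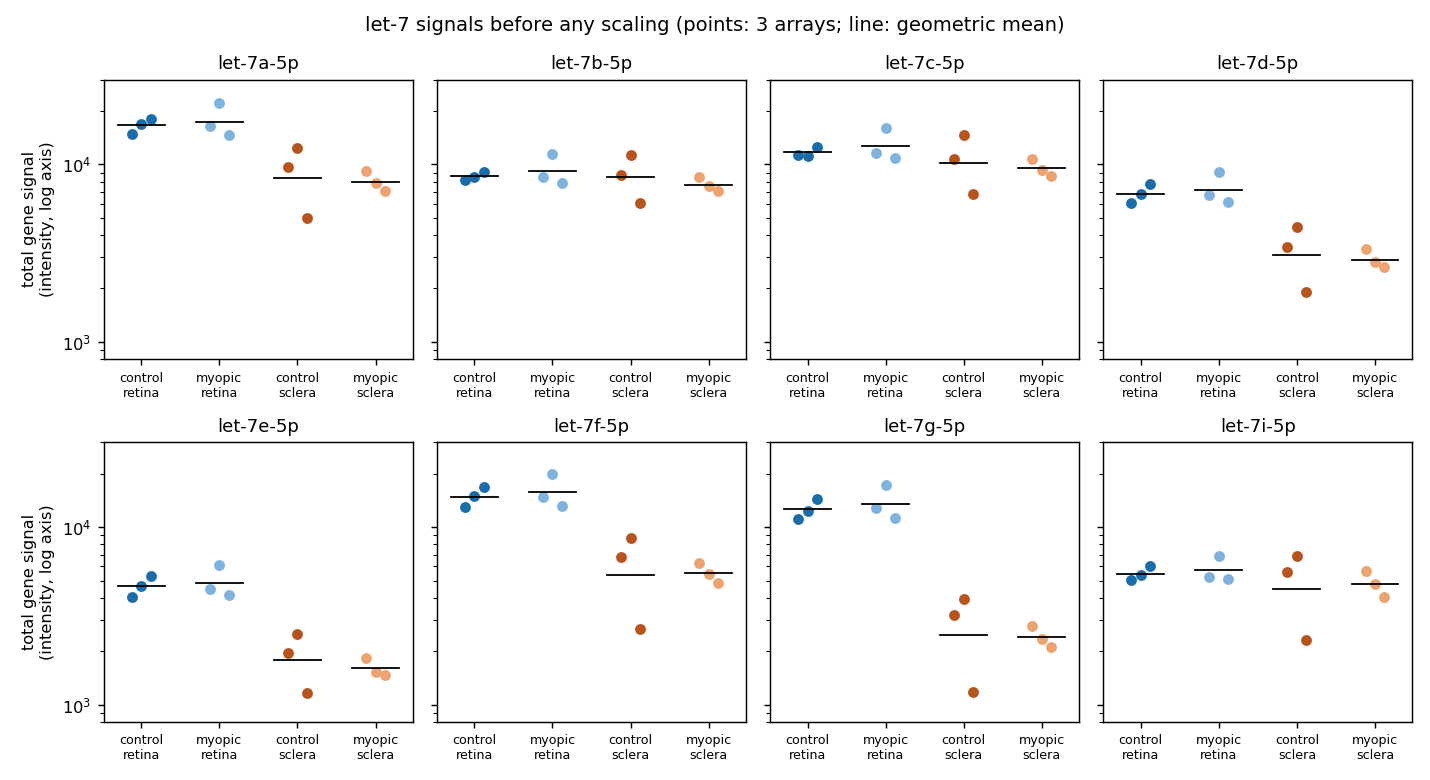
Total gene signal (intensity, log axis) of each let-7 member before any scaling, by group; points are the 3 arrays of a group and lines the geometric means. Let-7a, d, e, f and g sit higher on every retinal array than on any scleral array, let-7b, c and i overlap, and the third control sclera array is the lowest of its group for every member.

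The first question was whether let-7 levels differ between retina and sclera. After quantile normalization, which gives every array the same distribution, let-7g was higher in the control retina by 1.19 (SE 0.13, log2 scale, limma adjusted p = 2.4e-05), a fold of 2.28. Let-7b was lower by 1.13 on the same scale (log2 difference -1.13, SE 0.10, adjusted p = 8.0e-06), and let-7c likewise (-1.78, SE 0.21, adjusted p = 5.4e-05). These 3 of 8 members passed the call used throughout, an adjusted p under 0.05 and a fold of at least 2. Of the 443 miRNAs tested, 224 (50.6%) passed it. In this fit the family was thus not called more often than the arrays as a whole. Each of the 3 kept its sign in all 3 comparisons of same-numbered arrays.

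The remaining members differed less between control retina and sclera. Let-7i was lower in the retina (-0.87, SE 0.12, adjusted p = 1.3e-04), a fold of 1.83 that missed the fold threshold. Let-7e was slightly higher (0.33, SE 0.12, adjusted p = 0.0388), although leaving out single arrays took its adjusted p as high as 0.119, without the first control sclera array. Let-7a (-0.23, adjusted p = 0.066), let-7f (0.18, adjusted p = 0.115) and let-7d (0.03, adjusted p = 0.839) did not pass, and the 95% interval for let-7d ran from -0.23 to 0.30. By adjusted p alone 5 members passed, against 61.2% of all miRNAs. For 7 of the 8 members, all but let-7d, the 3 control retina and 3 control sclera values did not overlap after quantile normalization, a property of 58.9% of all miRNAs tested. After 75th percentile scaling let-7a overlapped (13.39 to 13.60 in control retina, 13.42 to 13.75 in control sclera). So did let-7e (11.52 to 11.83 against 11.11 to 11.65) and let-7d (12.11 to 12.37 against 11.93 to 12.38).

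In the form-deprived eyes the same members stood highest and lowest. Let-7g was higher in myopic retina than in myopic sclera (1.101, SE 0.13, adjusted p = 3.6e-05), and let-7b (-1.002, SE 0.10, adjusted p = 1.6e-05), let-7c (-2.34, SE 0.21, adjusted p = 6.4e-06) and let-7i (-1.11, SE 0.12, adjusted p = 2.1e-05) were lower. That made 4 of 8 members called against 58.9% of all miRNAs (261 of 443). Let-7a (-0.30, adjusted p = 0.0213) and let-7e (0.36, adjusted p = 0.0254) passed the p threshold alone, which made 6 members against 69.3% of all miRNAs, and let-7f (0.13, adjusted p = 0.227) and let-7d (-0.18, adjusted p = 0.206) did not. The let-7a result rested on the scaling, with rank 7 on every myopic retina array and rank 5 on every myopic sclera array. After 75th percentile scaling let-7a stood at -0.07 (limma adjusted p = 0.597). With the log2 values the authors deposited it stood at -0.21 (adjusted p = 0.188). Let-7e passed the p threshold under both (0.40, adjusted p = 0.0354, and 0.46, adjusted p = 0.0121). Leaving out single arrays took the quantile-normalized limma adjusted p of let-7e as high as 0.0693. With myopic samples too, 7 members had no overlap between tissues after quantile normalization, and 78.6% of all miRNAs had none. After 75th percentile scaling let-7a overlapped (13.42 to 13.56 in myopic retina, 13.51 to 13.62 in myopic sclera). Let-7d, the member that overlapped before, then did not (12.177 to 12.259 against 12.018 to 12.176). Control and myopic comparisons share no array, but 1 fit over all 12 arrays gave both the same estimate of the spread. The eyes also came from the same animals and the arrays from the same slides, so the comparisons are not independent.

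The size of the let-7c difference rested on the scaling. Quantile normalization replaces a signal by the mean of its rank. Let-7c ranked 3 or 4 of 696 on the scleral arrays, where the step between ranks was wide (15.43 and 14.55). On the retinal arrays it ranked 11 or 12, where the step was narrow (13.12 and 13.04). When each array was instead scaled to its 75th percentile, let-7c was lower in the retina by less (-0.85, SE 0.15, adjusted p = 8.8e-04 in control eyes, and -0.78, SE 0.15, adjusted p = 0.00137 in form-deprived eyes), under 2-fold. Let-7g then differed by 1.31 in control eyes (SE 0.11, adjusted p = 3.4e-06) and by 1.31 in form-deprived eyes (SE 0.11, adjusted p = 3.2e-06), and let-7b by -1.02 (SE 0.18, adjusted p = 7.4e-04) and -0.94 (SE 0.18, adjusted p = 0.00109). Let-7f became higher in the retina past the p threshold in both (0.42, adjusted p = 0.00629, and 0.32, adjusted p = 0.0189). The members called were then 2 in control eyes, let-7b and let-7g, against 54.6% of all miRNAs, and let-7g alone in form-deprived eyes, against 62.8%. The log2 values the authors deposited gave let-7c -1.15 and -1.47, let-7b -1.08 and -0.97, and let-7g 1.29 and 1.31 in control and form-deprived eyes. With them 3 members were called in control eyes, against 52.6% of 437 miRNAs, and 2 in form-deprived eyes, let-7c and let-7g, against 59.7%.

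The scalings also shifted the arrays as a whole. The median difference over the 246 miRNAs detected on all arrays was -0.24 in control eyes and -0.32 in form-deprived eyes after quantile normalization, and 0.13 and 0.39 after 75th percentile scaling. Relative to that median, let-7g stood at 1.43 and 1.42 after quantile normalization and at 1.18 and 0.92 after 75th percentile scaling. Let-7b stood at -0.89 and -0.68, and then at -1.15 and -1.33. Let-7i stood at -0.63 and -0.78, and then at -0.88 and -1.33. The direction of these 3 did not depend on the scaling. Let-7a, by contrast, stood at 0.01 and 0.02 after quantile normalization but at -0.19 and -0.45 after 75th percentile scaling. The median over the 8 members was -0.10 and -0.24 after quantile normalization and 0.03 and 0.03 after 75th percentile scaling.

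**Figure D2:**
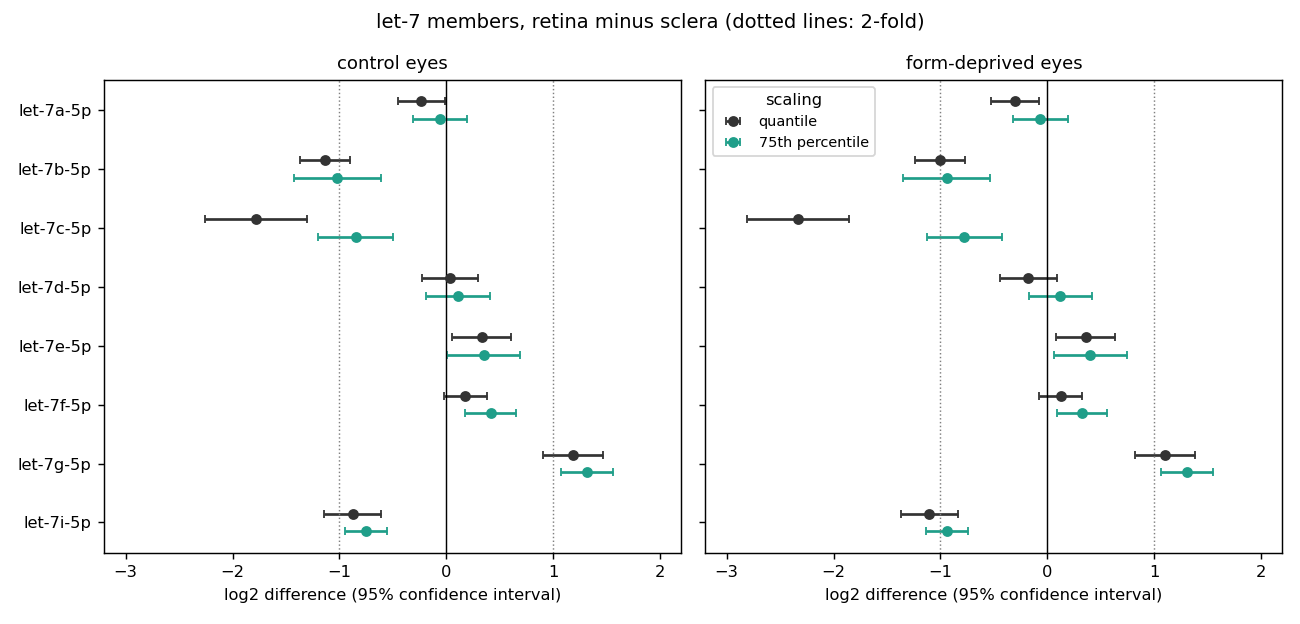
Log2 difference, retina minus sclera, of each let-7 member with its 95% confidence interval (limma, 3 arrays per group), after quantile normalization and after 75th percentile scaling, in control eyes on the left and form-deprived eyes on the right; dotted lines mark 2-fold. Let-7g lies near 1.1 to 1.3 in each panel, let-7b, c and i lie below 0, and let-7c moves most between the scalings.

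Another measure is each member's signal relative to the mean of the 8 members on the same array. It thus scales each array to the family itself. It was chosen after the data were seen, and it shows unequal change within the family, not which member changed. On this measure let-7g was higher in the retina by 1.37 in control eyes (SE 0.13, adjusted p = 1.1e-05) and by 1.38 in form-deprived eyes (SE 0.13, adjusted p = 9.3e-06), a fold of 2.6 in both. Let-7b was lower, with differences of -0.96 and -0.87 (SE 0.13, adjusted p = 1.4e-04 and 2.4e-04), as were let-7c, with -0.79 and -0.71 (SE 0.11, adjusted p = 1.7e-04 and 2.9e-04), and let-7i, with -0.69 and -0.87 (SE 0.11, adjusted p = 3.6e-04 and 7.3e-05). Let-7f (0.48 and 0.40, adjusted p = 0.00552 and 0.0126) and let-7e (0.41 and 0.47, adjusted p = 0.00469 and 0.002) were higher. Let-7a stayed at 0.00 and 0.01 (95% intervals -0.19 to 0.20 in both), and let-7d at 0.17 and 0.19 (adjusted p = 0.119 and 0.0748). The let-7d outcome rested on the third control sclera array, without which the adjusted p was 0.0101 in control and 0.00798 in form-deprived eyes. Let-7g alone passed the fold threshold, in both kinds of eye, against 53% of all miRNAs in control eyes and 62.5% in form-deprived eyes. Those other miRNAs were scaled to the same mean of the 8 members.

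In control eyes the order of the retina-to-sclera differences on this measure was let-7g, then let-7f and let-7e, then let-7d and let-7a, then let-7i, let-7c and let-7b. Neighbours in that order had overlapping intervals except let-7g, whose interval of 1.08 to 1.67 in control eyes lay above those of let-7f (0.21 to 0.74) and let-7e (0.19 to 0.64), and let-7a, whose interval lay above that of let-7i (-0.94 to -0.44). Members that differ by a single base were among those that differed in pattern: let-7a and let-7c, separated by A19G, stood at 0.00 and -0.79 with intervals that do not meet. Let-7b and let-7c, also a single base apart, stood at -0.96 and -0.79 with intervals that overlap. The spread over arrays was unequal. On this scale the SD of let-7g was 0.04 in control retina and 0.26 in control sclera. There the third control sclera array stood apart at -1.23 against -0.75 and -0.81.

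**Figure D3:**
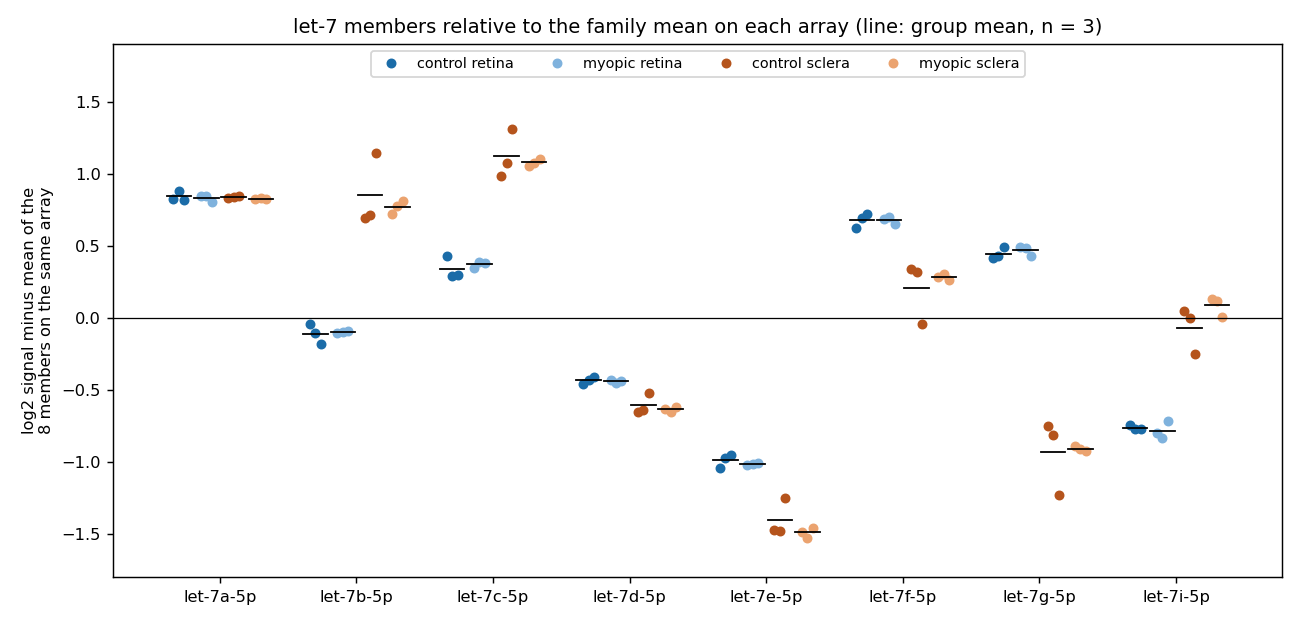
Log2 signal of each let-7 member minus the mean of the 8 members on the same array; points are arrays, lines group means (n = 3), and heights may be compared within a member only, since probes differ. Let-7g is higher and let-7b, c and i are lower in the retina, let-7a is level, and the third control sclera array lies apart from the other 2 for every member but let-7a.

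Genomic neighbours gave a further view of the tissue differences, here after 75th percentile scaling. Let-7b and let-7c, whose genes Mirlet7b and Mirlet7c-2 lie side by side on chromosome 15, were both lower in the retina. Let-7c-1 lies beside miR-99a, and miR-99a-5p was also lower (-0.80 in control eyes, adjusted p = 0.00221, and -0.60 in form-deprived eyes, adjusted p = 0.00928). Let-7a-2 lies beside miR-100, and there the neighbours parted: miR-100-5p was lower in the retina (-1.44, adjusted p = 3.3e-05, and -1.34, adjusted p = 4.6e-05), whereas let-7a stood at -0.06 and -0.07. MiR-125b-5p, whose genes lie farther out beside the same let-7a and let-7c genes, was lower as well (-1.27, adjusted p = 2.8e-04, and -1.06, adjusted p = 8.8e-04). Beside let-7e, miR-99b-5p (0.00 and 0.16) and miR-125a-5p (0.13 and 0.34) did not pass the test. Let-7e itself did not pass in control eyes on this scaling (0.35, limma adjusted p = 0.0637). It passed the p threshold in form-deprived eyes (0.40, limma adjusted p = 0.0354). MiR-98-5p, next to let-7f-2 and with the let-7 seed, was higher in the retina (0.45, adjusted p = 0.012, and 0.35, adjusted p = 0.0309), with let-7f at 0.42 and 0.32. After quantile normalization miR-98-5p did not pass (0.21, adjusted p = 0.227, and -0.04, adjusted p = 0.828).

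**Figure D4:**
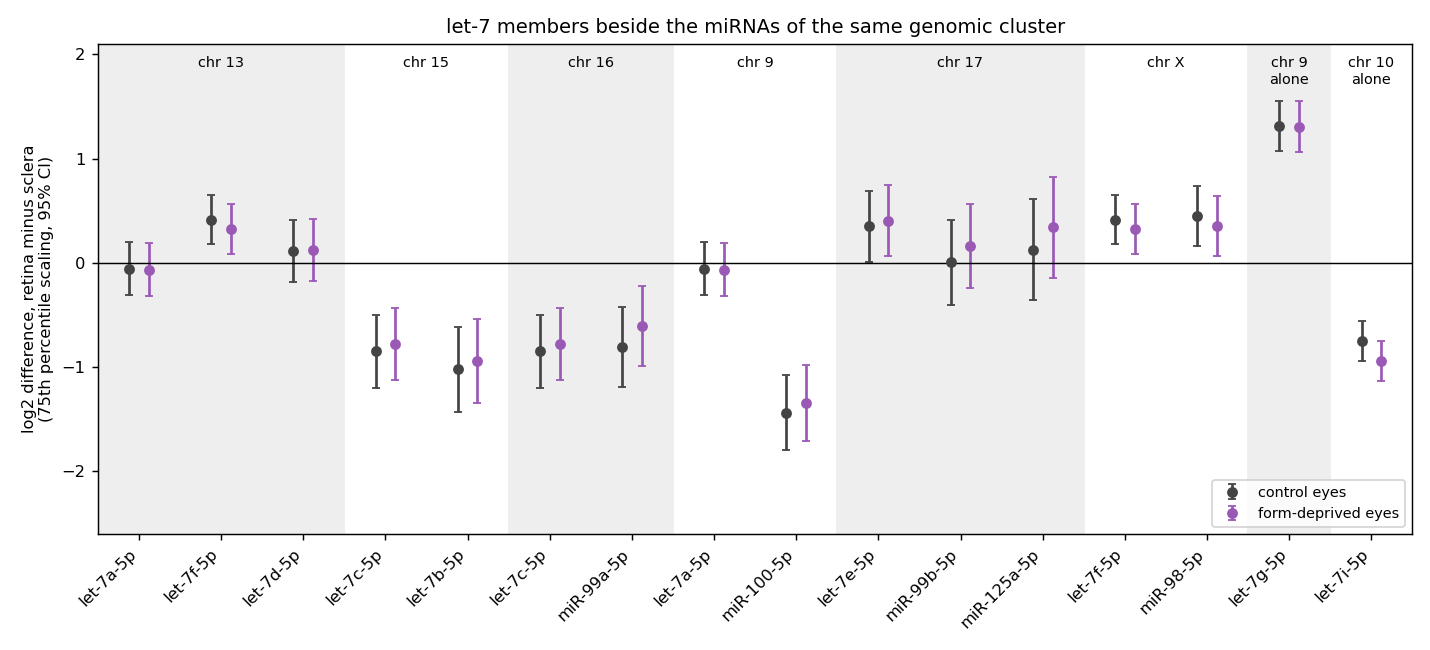
Log2 difference, retina minus sclera, after 75th percentile scaling with 95% confidence intervals, for let-7 members and the miRNAs whose genes lie within 10000 bases of theirs; let-7a, c and f appear under each of their 2 loci, whose outputs the arrays cannot separate. Let-7c and miR-99a-5p lie together below 0, whereas miR-100-5p lies below let-7a, and let-7g, which has no such neighbour, is the highest.

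The opposite strands of the let-7 hairpins, the 3p arms, were dim. The arrays carried 7 of them. Let-7i-3p was detected on no array, let-7g-3p on 1 and let-7c-1-3p on 2, both scleral. Let-7b-3p was detected on all 12 arrays and was lower in the retina after quantile normalization (-1.53, adjusted p = 0.0083, and -2.25, adjusted p = 7.0e-04), and let-7f-1-3p likewise (-1.65, adjusted p = 0.00694, and -2.66, adjusted p = 3.3e-04). After 75th percentile scaling let-7f-1-3p kept a difference past the call (-1.10, adjusted p = 0.0316, and -1.25, adjusted p = 0.0157), and let-7b-3p did not (-1.01, adjusted p = 0.0683, and -0.91, adjusted p = 0.0856). Other arms were higher in the retina on this scaling, in form-deprived eyes. Let-7d-3p differed by 2.41 (adjusted p = 0.00996) and let-7a-1-3p by 3.57 (adjusted p = 0.0162), the latter undetected and set to the floor on 2 of the 3 myopic sclera arrays. In control eyes they differed by 0.14 (adjusted p = 0.905) and 0.92 (adjusted p = 0.484), and after quantile normalization neither passed in either kind of eye. For let-7f, the 5p and 3p arms thus had opposite signs between tissues on this scaling. The 3p arm of let-7d showed the largest difference with form deprivation in the retina among the 3 arms detected on every array. It was higher in myopic than in control retina in all 3 same-numbered pairs, by 1.42 (SE 0.47, limma adjusted p = 0.134). After 75th percentile scaling the difference was 2.12 (SE 0.69, limma adjusted p = 0.208), and the arm passed under neither. Probes for let-7a-1-3p are also annotated for let-7c-2-3p, and that arm was detected on 6 retinal and 3 scleral arrays.

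The second question was whether form deprivation changed let-7. In the retina no difference was detectable. None of the 8 members was called, against 0.226% of the 443 miRNAs (1 miRNA), and none had an unadjusted p under 0.05, against 29.3% of all miRNAs. The count over all miRNAs was unstable, since 122 were called without the first control retina array and 14 without the third myopic retina array, and 146 with arrays weighted by their quality, but no member was called in any of these fits. The differences, myopic minus control, ran from -0.06 for let-7i to 0.06 for let-7g on the log2 scale. The 95% intervals after quantile normalization were -0.32 to 0.21 for let-7i and -0.23 to 0.34 for let-7g, and the widest, that of let-7c, ran from -0.45 to 0.50. A change of level that kept a member's rank does not show on this scale, so these intervals do not bound it. Let-7a, let-7b and let-7f had a difference of 0.00 because they held the same ranks on corresponding arrays (let-7a ranked 7 on every retinal array). After 75th percentile scaling the 8 differences ran from -0.05 to 0.01, and the widest interval, that of let-7b, from -0.42 to 0.39. The median over all 246 widely detected miRNAs was -0.21 after quantile normalization and -0.02 after 75th percentile scaling, so the members stood 0.16 to 0.27 above that median under the first and close to it under the second.

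In the sclera no member was called either, and no miRNA of the 443 was (0%). With limma 13 miRNAs had an unadjusted p under 0.05 (2.93%), among them let-7c. Let-7c was higher in the myopic sclera by 0.58 (SE 0.21, 95% interval 0.10 to 1.06, limma unadjusted p = 0.0224 and adjusted p = 1). Its normalized log2 values were 14.55, 15.43 and 14.55 in control sclera and 15.43 on each myopic array, which are 2 distinct rank values. After 75th percentile scaling the difference was -0.06 (95% interval -0.41 to 0.29). Without the second control sclera array the quantile value was 0.87 (adjusted p = 0.00701, still under 2-fold), and without the first or the third it was 0.44. The other 7 members lay between -0.13 and 0.23. Let-7i was the highest after 75th percentile scaling (0.15, 95% interval -0.05 to 0.34, limma adjusted p = 0.997). It was above control in all 3 comparisons of same-numbered arrays, whose shared animals are not settled.

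**Figure D5:**
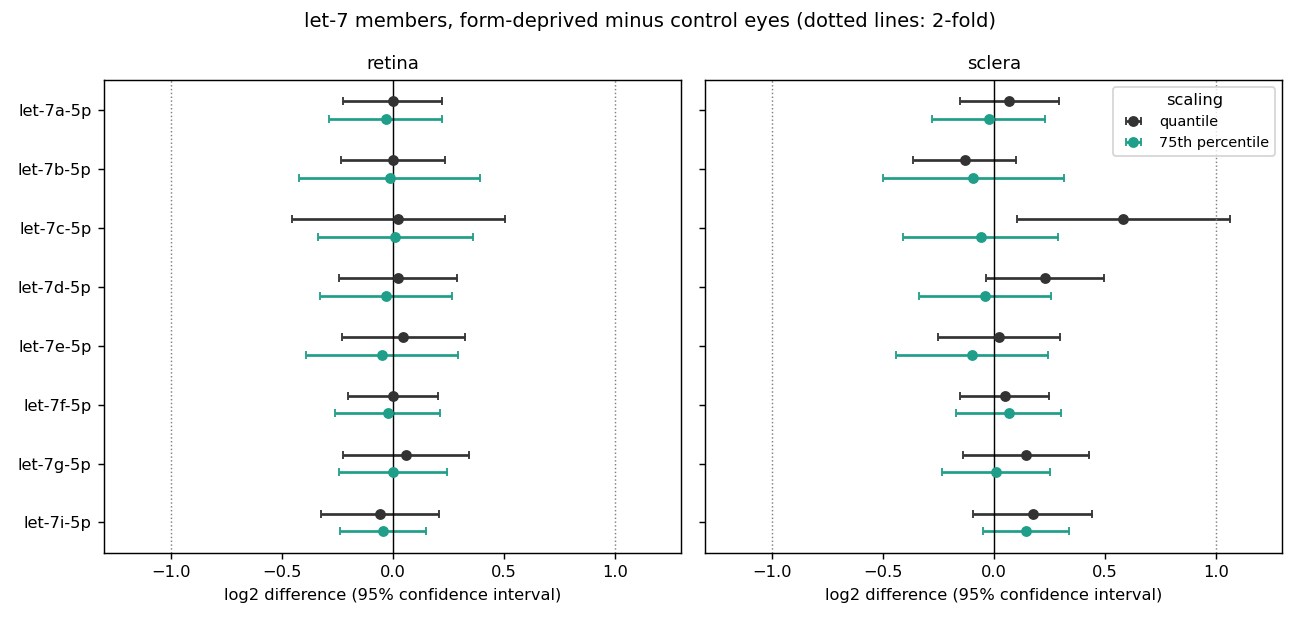
Log2 difference, form-deprived minus control eyes, of each let-7 member with its 95% confidence interval, in retina and sclera, after quantile normalization and after 75th percentile scaling; dotted lines mark 2-fold. All intervals in the retina include 0, and in the sclera the let-7c interval excludes 0 after quantile normalization only.

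The response to form deprivation was also compared between the tissues. The difference of the differences (retina change minus sclera change) was largest for let-7c, at -0.56 (SE 0.30, adjusted p = 0.38), and the adjusted p of the 8 members ran from 0.38 to 0.928. None was called, against 0.226% of all miRNAs, and 36 miRNAs (8.13%) but no member had an unadjusted p under 0.05. Without the second control sclera array the let-7c value was -0.85 (adjusted p = 0.0433, under 2-fold), and after 75th percentile scaling with all arrays it was 0.07. With arrays weighted by their quality, let-7d reached an adjusted p of 0.0198 at -0.32, also under 2-fold, and 156 miRNAs were called over all. With equal weights 111 were called without the first control retina array and 9 without the third myopic retina array.

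The family mean differed little between groups after 75th percentile scaling and was higher in the sclera after quantile normalization. Under the first it was 12.67 ± 0.11 (SD, n = 3) in control retina, 12.65 ± 0.05 in myopic retina, 12.73 ± 0.16 in control sclera and 12.72 ± 0.06 in myopic sclera. The retinal and scleral values of control eyes overlapped (12.57 to 12.78 against 12.59 to 12.91). The 8 members made up 11.7% to 13.1% of the summed signal of all miRNAs on retinal arrays and 13.5% to 16.9% on scleral arrays. After quantile normalization the mean was 12.74 ± 0.03 and 12.75 ± 0.03 in control and myopic retina, and 13.02 ± 0.11 and 13.17 ± 0.02 in control and myopic sclera.

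Among the other 238 miRNAs detected on all 12 arrays, 5 had a pattern nearest to that family mean after quantile normalization, judged by the root mean square difference of centred log2 values over the 12 arrays. They were miR-195-5p (0.12), miR-154-5p (0.13), miR-378-3p (0.17), miR-26a-5p (0.18) and the entry miR-2146_v15.0 (0.20), against a median of 0.69 over the 238. Of the members themselves, let-7a lay nearest to the family mean (0.08), and let-7g (0.75) and let-7c (0.88) lay farthest.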

How the data were processed

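The authors deposited, per the labels and file headers, Agilent Feature Extraction output of 12 arrays (header version 11.0.1.1, build mm9), with background-corrected intensity per spot and per miRNA (total gene signal) and a detection flag (Agilent's call of signal above its error). They also deposited a log2 table of 437 miRNAs; their methods set the minimum signal to 0.5, quantile-normalized, took log2 and removed absent features in Partek 6.6. Here, total gene signals were floored at 0.5, quantile-normalized over 696 names and log2-transformed. The 443 miRNAs detected on at least 1 array were fitted with limma 3.58.1 in R 4.3.3 (4 groups, 8 residual degrees of freedom), two-sided, with Benjamini-Hochberg adjustment over all 443. A call needed an adjusted p under 0.05 and a fold of at least 2. The number of arrays limits precision, and no miRNA spot was saturated. Named miRNAs were the 8 members, miR-98-5p, the 3p arms, cluster neighbours, and the 5 most alike. The members and lists were chosen with earlier results of these data known. Samples were grouped by their labels. The replicate number follows the labels' mouse identifier and marks the slide. The paper pairs same-numbered control and myopic retina samples, while for the sclera the shared animals are unsettled. The main fit did not use these pairs. The deviations of same-numbered arrays correlated between -0.464 and 0.586. Alternatives covered scaling, floor, background, filter, block, weights and each array left out. The fit was tested on simulated data. Python 3.11.15 read sequences and drew figures.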

Additional observations from a re-analysis of the deposited data

How the results depend on the processing

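With 3 arrays per group, log2 differences of the members below about 0.2 to 0.5 were not resolved. No member was called for form deprivation, in either tissue or for their difference, under any alternative. In control eyes leaving out each array gave 3 to 3 members called between tissues, against 192 to 224 of all 443 miRNAs. For form-deprived eyes it gave 3 to 4 members, against 243 to 270 of 443. The 3 arose without myopic retina replicate 1 or 3 or myopic sclera replicate 3, where let-7b came under 2-fold. The replicate block (pairing by labelled number, which is also the slide) left 3 and 4 members called, against 224 and 262 of 443 miRNAs. It changed no other member's call. In form-deprived eyes 1 member was called after 75th percentile scaling, against 278 of all 443 miRNAs, and 1 with processed spot signals, against 302 of 443. With the deposited log2 values 2 were called, against 261 of 437, and with normexp 2, against 73 of 443. Control eyes gave 2 members with spot signals, against 255 of 443, and 2 with normexp, against 66 of 443. Let-7g was among those called each time, and the cause was not tested. Most results that changed sign were small throughout, but let-7c in the sclera (0.58 as reported), let-7d there (0.23) and the let-7c and let-7d differences of the differences (-0.56 and -0.21) changed sign from larger values. For form deprivation in the retina, let-7d was -0.0293, -0.0170 and -0.0216 and let-7e -0.0490, -0.0248 and -0.0239 with 75th percentile scaling, spot signals and array weights. In the sclera, let-7a was -0.0238 and -0.05, let-7c -0.0583 and -0.0436, let-7d -0.0407 and -0.0411, and let-7e -0.10 and -0.13 with 75th percentile scaling and spot signals; let-7e was -0.0218 with normexp and let-7g -0.0231 with spot signals. Between myopic tissues, let-7a was 0.0113 with spot signals, and let-7d 0.12, 0.15 and 0.15 with 75th percentile scaling, deposited values and spot signals. For the difference of the differences, let-7a was 0.04 with spot signals, let-7c 0.0691 and 0.0537 and let-7d 0.0114 and 0.0241 with 75th percentile scaling and spot signals, let-7e -0.16 with array weights, and let-7g 0.0196, 0.0521 and 0.0493 with deposited values, spot signals and array weights. Leaving out single arrays gave let-7d -0.0407 to 0.0642 in the retina and -0.0376 to 0.10 between control tissues, let-7e -0.0797 to 0.12 in the sclera and -0.0782 to 0.13 for the difference of the differences, let-7g -0.17 to 0.0222 for the latter, and let-7a relative to the family mean -0.0167 to 0.0144 in control and -0.0014 to 0.0190 in form-deprived eyes. The cause of these sign changes was not tested.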
